A study of Homo sapiens with 6 samples.

Results

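The 200 most highly expressed protein-coding ZNF genes of DND41 cells were examined after treatment with MB1-47. ZNF is the symbol stem of a large family of zinc finger genes. The table of normalized counts held 17202 genes, among them 480 protein-coding symbols made of ZNF and a number. The members were chosen by their mean normalized count over all 6 libraries: the 480 were ranked on it and the 200 with the highest mean were taken. The difference between the groups played no part in that ranking, but ZNF genes were chosen for study with earlier results of these data known. DND41 is a human line of T-cell acute lymphoblastic leukaemia. In 3 libraries the cells had been treated for 24 h with MB1-47, which the series title calls a mitochondrial uncoupling drug, and in 3 with its solvent DMSO. The dose label reads 4 mM, and that unit was not checked. The labels describe plating in triplicates and do not name separate cultures, and the spread that p-values rest on may therefore be technical. Fewer cells or less RNA per cell cannot be told apart from a change in level.

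Most ZNF genes encode proteins with arrays of C2H2 zinc fingers, short loops that hold a zinc ion between a pair of cysteines and a pair of histidines and bind DNA. Many also carry a KRAB box, a short segment that recruits the corepressor TRIM28. TRIM28 in turn brings in the histone methyltransferase SETDB1 and heterochromatin proteins, and the best known targets of this system are transposable elements. In the human genome, KRAB zinc finger genes lie mainly in clusters on chromosome 19, where they arose by repeated duplication.

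A C2H2 pattern was found in the translated coding sequence of most of these 200 genes, with a median of 10 fingers and a middle range of 7 to 14. A KRAB pattern was found in 124 and a SCAN pattern, a dimerization domain, in 5. These patterns are short and can miss a domain: the SCAN pattern was not found in ZNF24, a SCAN protein described below. Genes without a pattern may therefore still encode the domain. Chromosome 19 held 97 of the genes and chromosome 7 held 17. Their median transcript length was 3114 bases, against 2560 for all protein-coding genes tested, and their median GC content was 43.0%, against 49.0%. The ranking values, given only as a description, ended with 663 for ZNF720 and 646 for ZNF490, the last inside. The next genes, ZNF48 and ZNF420, stood at 642 and 636 just outside.

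Values are the authors' normalized counts per gene. They are not divided by transcript length, so levels are compared between groups and not between genes. About 1 read was worth 0.744 to 1.17 normalized counts in a library, as read from the spacing of low values. This puts the depth at an estimated 25400000 to 38100000 reads per library, and all 200 genes passed the minimum mean of 10 that was used to select genes for testing. The label of the cells was checked on marker genes. Of 12 T-lineage markers, 11 were in the table. Their summed level was 28964 to 33827 with MB1-47 and 53748 to 57146 with DMSO, with none higher and 6 lower. This is 54.5% lower, against 19.8% of all genes tested and 28.5% of genes at the level of the 200. TLX3 (log2 fold change 0.48) and CD5 (2.11, with a mean of only 13.5) had positive values and did not pass. CD3E (-0.17) did not pass either. CD79A, a B-lineage gene, averaged 6825 ± 391 with MB1-47 and 16526 ± 573 with DMSO (SD, n = 3 each) and was lower (log2 fold change -1.28). EBF1, another, averaged 1072 ± 156 with MB1-47 and 799 ± 104 with DMSO and was higher (0.42, limma adjusted p = 0.047). The part of these marker shifts in the changes of ZNF genes was not tested. The 2 myeloid markers in the table, CD14 and LYZ, summed to at most 22.9 in any library. Both were under the minimum mean of 10 and were not tested. CD14 was at 0 in all MB1-47 libraries and in DMSO replicate 1. LYZ had 3.22, 11.2 and 4.67 with MB1-47, against 0, 0.997 and 2.01 with DMSO.

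MB1-47 was followed by small changes in many of these genes, more often upward than downward. Of the 200, 60 were higher, 24 were lower and 116 did not pass the test. The test was limma's moderated test on log2(value + 1), fitted to all 13465 genes tested, with a Benjamini-Hochberg adjusted p under 0.05. The share called was 42% of the 200, near the background of 38.1% of all genes tested. Among the 7221 tested genes with a mean at least as high as that of the last of the 200, 53.4% were called. The direction stood further from the background than the count. ZNF genes were called higher in 30% of cases and lower in 12%, against 18.3% and 19.8% of all genes tested, and 24.9% and 28.5% of the genes at that level. Both counts depended on single libraries. Without DMSO replicate 3, 44 were higher and 12 lower, beside 15.1% and 15.8% of all genes tested in that fit. Without MB1-47 replicate 3, 50 were higher and 14 lower, beside 14.6% and 17.5%. Without MB1-47 replicate 1, 42 were higher and 18 lower, beside 14.8% and 17.1%. Under equal library totals 92 were higher and 11 lower, while all genes tested split into 3335 higher and 2063 lower, in place of 2458 and 2667.

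**Figure D1:**
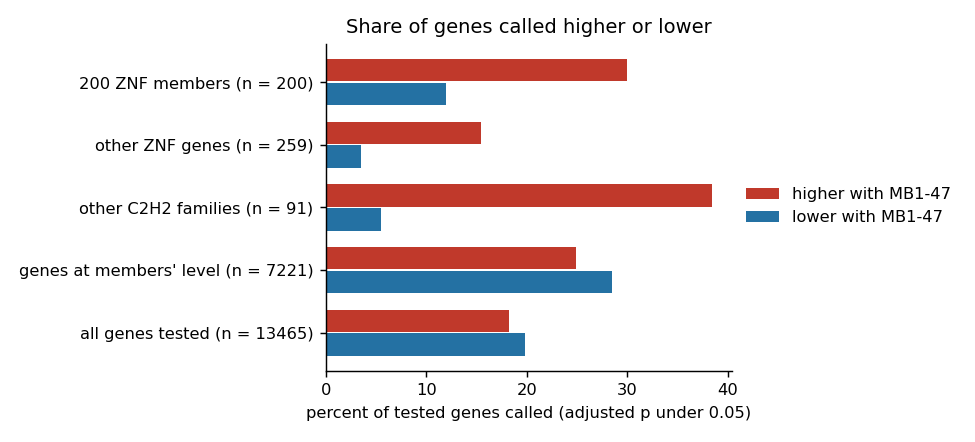
Percent of tested genes called higher or lower with MB1-47 (adjusted p under 0.05), for the 200 ZNF genes, the other protein-coding ZNF genes, other C2H2 families, genes at the level of the 200 and all genes tested. In the 200 ZNF genes the bar for higher calls reaches 30% and that for lower calls 12%.

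The changes were small in size. The median log2 fold change of MB1-47 over DMSO was 0.20 over the 200 genes, with a middle range from -0.06 to 0.43. Over all genes tested the median was 0.02, with a middle range from -0.42 to 0.44. A positive value was found in 141 of the 200 genes and a negative one in 59. Only 6 of the 200, or 3%, were both called and changed at least 2-fold, 3 in each direction. The background was 10.7% of all genes tested, 4.75% higher and 5.99% lower, and 10.4% of the genes at the level of the 200, 3.81% higher and 6.55% lower. Of the 60 higher genes, 32 changed by less than 1.5-fold, as did 14 of the 24 lower genes. With equal library totals the median of all genes moved to 0.15 and that of the 200 to 0.33. After removal of a per-library trend on GC and length, the median of the 200 was 0.11, with 42 higher and 26 lower. All genes tested then had 17.2% higher and 20.6% lower, and the distance between the medians was 0.11, in place of 0.18 as deposited.

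**Figure D2:**
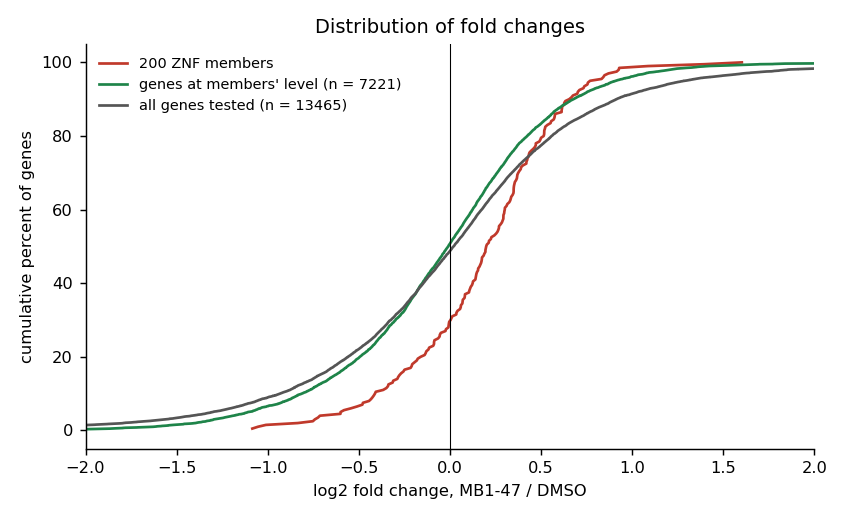
Cumulative percent of genes (y axis) against the log2 fold change of MB1-47 over DMSO (x axis, shown from -2 to 2) for the 200 ZNF genes, the 7221 genes at their level and all 13465 genes tested. The ZNF curve crosses 50% at 0.20 and that of all genes tested at 0.02.

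The summed level of the 200 genes also differed between the groups. It was 392707, 368662 and 384342 normalized counts in MB1-47 replicates 1, 2 and 3. In DMSO replicates 1, 2 and 3 it was 345983, 347071 and 340352. The groups did not overlap. As a share of each library's total it was 1.31% ± 0.0220 with MB1-47 and 1.08% ± 0.0389 with DMSO (SD, n = 3 each). The groups did not overlap in 99 of the 200 genes singly, 70 of them higher with MB1-47 and 29 lower. That is 49.5%, 35% higher and 14.5% lower. Without overlap were 49.3% of all genes tested, 24.1% higher and 25.2% lower, and 62.8% of the genes at the level of the 200, 29.4% higher and 33.4% lower. MB1-47 replicate 1 was the highest of the 6 libraries in 66 genes, and DMSO replicate 3 was the lowest in 53.

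**Figure D3:**
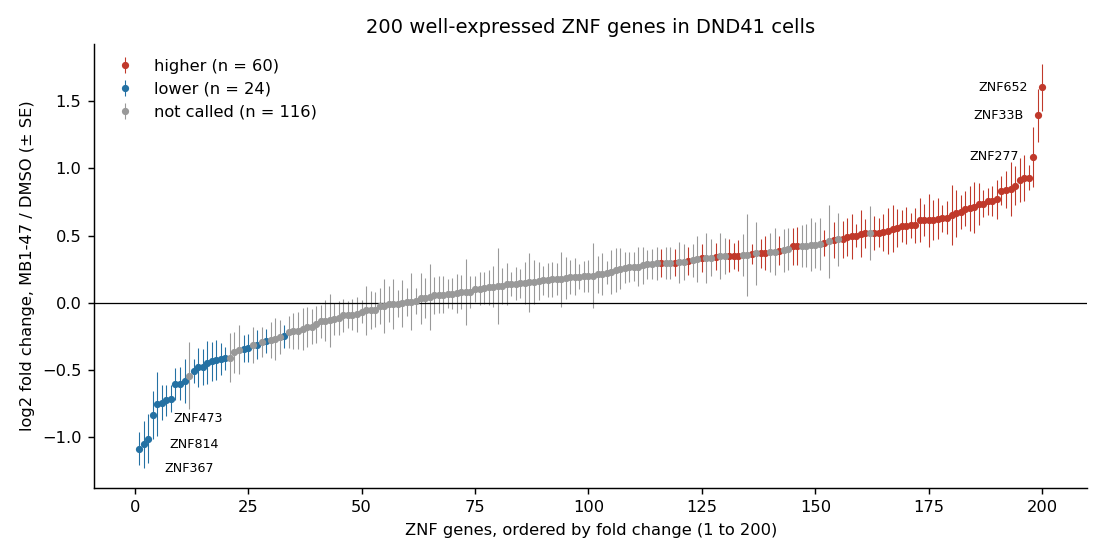
Log2 fold change of MB1-47 over DMSO with its SE (y axis) for the 200 ZNF genes, ordered from the lowest to the highest (x axis). Red marks the 60 genes called higher, blue the 24 called lower and grey the 116 not called, and ZNF652, ZNF33B and ZNF277 stand at the upper end.

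The largest rises were those of ZNF652, ZNF33B and ZNF277, the only members that both passed the test and rose at least 2-fold as deposited. ZNF652 encodes a repressor that works with the corepressor CBFA2T3 and lies on chromosome 17 from 49289206 to 49362473 (GENCODE 29, GRCh38). It had 1670, 1537 and 1736 normalized counts in MB1-47 replicates 1, 2 and 3, against 553, 687 and 418 in the DMSO replicates. Each MB1-47 library stood more than 2-fold above each DMSO library. The log2 fold change was 1.60 ± 0.17 (SE), a 3.03-fold difference (limma adjusted p = 3.6e-05).

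ZNF33B, a KRAB zinc finger gene on chromosome 10, had 1359, 1218 and 1598 normalized counts with MB1-47, against 526, 695 and 397 with DMSO. The groups did not overlap, and the log2 fold change was 1.39 ± 0.20 (limma adjusted p = 0.00024). Its near copy ZNF33A shares 18.7% of the 31-base stretches of its transcripts, so part of its reads could be split between both genes. ZNF277, a C2H2 gene on chromosome 7, had 2111, 1182 and 2110 with MB1-47, against 699, 1014 and 775 with DMSO. MB1-47 replicate 2 was low, close to the highest DMSO library, and the log2 fold change was 1.09 ± 0.22 (limma adjusted p = 0.0027).

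ZNF318, whose mouse counterpart controls the choice between IgM and IgD transcripts in B cells, had the smallest standard error among the 10 largest rises. It had 3495, 3805 and 3987 normalized counts with MB1-47, against 1993, 2000 and 1928 with DMSO. The log2 fold change was 0.93 ± 0.09 (limma adjusted p = 2.1e-05), and no 31-base stretch of it occurs in another gene. ZNF711, an X-linked gene known from inherited intellectual disability, averaged 2235 ± 196 with MB1-47 and 1253 ± 48.0 with DMSO (SD, n = 3 each), a log2 fold change of 0.83. The other 5 of the 10 largest rises were those of ZNF181, ZNF280D, ZNF548, ZNF75D and ZNF391, with log2 fold changes of 0.93, 0.91, 0.87, 0.85 and 0.84. The 10 genes were taken from those whose groups do not overlap.

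The largest falls were those of ZNF367, ZNF814 and ZNF473. ZNF367, on chromosome 9 from 96385941 to 96418329 (GENCODE 29, GRCh38), had 1101, 963 and 1253 normalized counts with MB1-47, against 2357, 2161 and 2490 with DMSO. All MB1-47 libraries were low, and the log2 fold change was -1.08 ± 0.12 (limma adjusted p = 5.3e-05). ZNF367 shares no 31-base stretch with another gene. ZNF814, a KRAB gene of chromosome 19 with 23 finger patterns, had 1045, 625 and 738 with MB1-47, against 1584, 1703 and 1602 with DMSO. Its log2 fold change was -1.05 ± 0.17 (limma adjusted p = 0.00063), and 29.4% of its 31-base stretches occur in other genes, most often in ZNF587B.

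ZNF473 encodes a factor that works with the U7 particle in the 3′ end processing of replication-dependent histone mRNAs. It had 605, 845 and 655 normalized counts with MB1-47, against 1717, 1113 and 1434 with DMSO. The groups did not overlap, DMSO replicate 2 was the lowest of its group, and the log2 fold change was -1.01 ± 0.18 (limma adjusted p = 0.0011). ZNF207, which brings the checkpoint protein BUB3 to kinetochores, was the member with the highest mean and fell as well. It had 7577, 5992 and 6679 with MB1-47, against 11859.5, 10853 and 10391 with DMSO. All MB1-47 libraries were low, with a log2 fold change of -0.71 ± 0.10 (limma adjusted p = 0.000205).

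The other 6 of the 10 largest falls had log2 fold changes of -0.84 for ZNF276, -0.75 for ZNF749, -0.74 for ZNF480, -0.72 for ZNF195, -0.60 for ZNF347 and -0.60 for ZNF286A. ZNF276 overlaps FANCA, which shares 41.3% of its 31-base stretches. ZNF286A shares 71.0% of them with other genes, mainly ZNF286B, so the values of both genes are uncertain. ZNF749 had 824, 526 and 375 with MB1-47, against 983, 838 and 947 with DMSO. Its limma adjusted p of 0.029 ranged from 0.0018 to 0.11 over 17 alternatives. It rose to 0.068 without DMSO replicate 1, 0.084 without DMSO replicate 3, 0.066 without MB1-47 replicate 2 and 0.098 without MB1-47 replicate 3, where the log2 fold change was -0.48. It also missed the threshold with equal library totals and with limma without a trend. The other 19 of these 20 genes passed the test in every alternative.

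**Figure D4:**
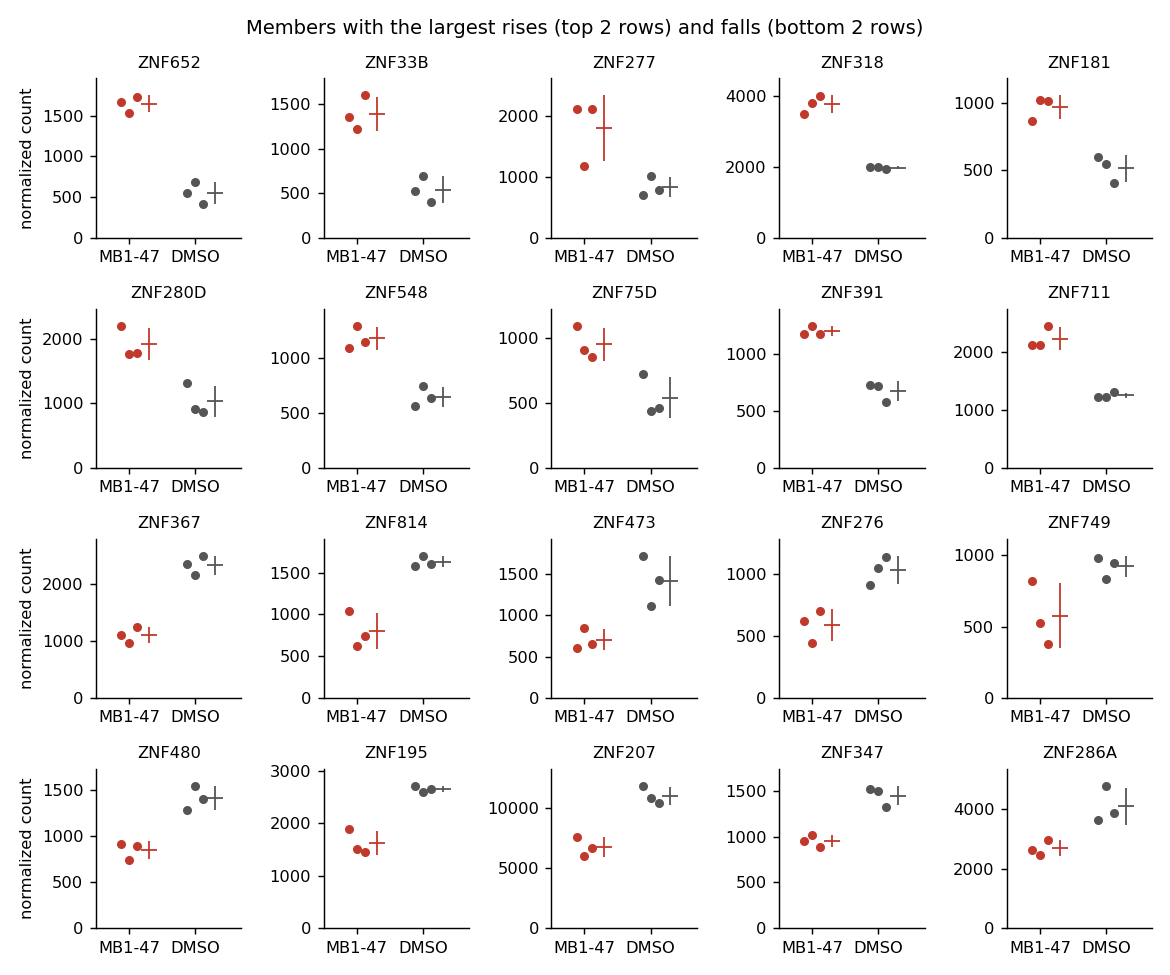
Normalized counts (y axis, from 0) in each library for the 10 ZNF genes with the largest rises and the 10 with the largest falls among genes that passed the test with no overlap between groups. Points are the 3 libraries of MB1-47 (red, left) and of DMSO (grey, right), and bars show mean ± SD. The groups are apart in every panel because the genes were chosen so, with ZNF652 3.03-fold higher and ZNF367 2.12-fold lower with MB1-47.

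Promoter windows of the members were searched for several short motifs, all of which are given below. The windows reach from 250 bases before to 50 bases after the RefSeq gene start on GRCh38.p14, and 178 of the 200 genes had one. The sequence CCGGAAG, a core of ETS factor motifs, was present on either strand in 84 of the 178 windows, or 47.2%. It was present in 14.4% of all 14896 protein-coding promoter windows of that length. It was found in 56.8% of members with a KRAB pattern and 31.3% of those without. By direction, 37.0% of the higher, 50% of the lower and 52.0% of the uncalled members held it. The motif CCAAT, searched the same way, was in 44.9% of the members' windows and 36.4% of all windows. CACGTG was in 6.18% of the members' windows and 8.94% of all windows. By direction, it was in 18.2% of the 22 lower, 5.56% of the 54 higher and 3.92% of the 102 uncalled members with a window. GCATGCGC was in 8.43% of the members' windows and 4.31% of all windows. For TGACGTCA the shares were 4.49% and 2.59%, and for TGATGCAA 0% and 0.638%.

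The windows of the largest rise and the largest fall, ZNF652 and ZNF367, hold no CCGGAAG. ZNF548, among the rises, and ZNF347, among the falls, hold it once each and are shown to set a rising and a falling gene with the same motif side by side. Capitals mark CCGGAAG, and each sequence runs 5′ to 3′ along the gene's strand.
ZNF652, chr17:49362201-49362500, minus strand: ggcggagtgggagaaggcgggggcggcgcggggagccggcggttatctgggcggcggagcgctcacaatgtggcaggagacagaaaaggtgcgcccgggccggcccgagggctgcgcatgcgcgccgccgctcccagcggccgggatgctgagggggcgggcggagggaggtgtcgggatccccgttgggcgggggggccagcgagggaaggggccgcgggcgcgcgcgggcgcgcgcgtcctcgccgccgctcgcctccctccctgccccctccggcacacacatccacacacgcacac
ZNF548, chr19:57389604-57389903, plus strand: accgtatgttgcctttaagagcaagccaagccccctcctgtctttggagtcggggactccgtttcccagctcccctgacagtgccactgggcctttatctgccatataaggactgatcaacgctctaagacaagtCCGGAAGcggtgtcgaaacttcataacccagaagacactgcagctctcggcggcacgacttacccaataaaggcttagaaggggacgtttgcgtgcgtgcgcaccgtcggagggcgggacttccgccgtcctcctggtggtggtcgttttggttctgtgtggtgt
ZNF367, chr9:96418321-96418620, minus strand: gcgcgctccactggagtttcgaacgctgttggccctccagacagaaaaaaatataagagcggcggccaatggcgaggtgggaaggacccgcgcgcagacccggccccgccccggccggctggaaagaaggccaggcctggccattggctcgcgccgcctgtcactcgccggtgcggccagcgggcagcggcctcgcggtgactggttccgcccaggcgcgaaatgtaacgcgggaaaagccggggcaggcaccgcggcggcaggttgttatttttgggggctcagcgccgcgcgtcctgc
ZNF347, chr19:53159004-53159303, minus strand: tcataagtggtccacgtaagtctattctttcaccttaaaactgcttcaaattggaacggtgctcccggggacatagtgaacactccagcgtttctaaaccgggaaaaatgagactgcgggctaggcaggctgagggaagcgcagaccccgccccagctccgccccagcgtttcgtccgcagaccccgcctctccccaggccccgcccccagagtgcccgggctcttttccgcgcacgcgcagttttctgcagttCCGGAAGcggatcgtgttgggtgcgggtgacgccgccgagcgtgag

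The members with the highest means moved both ways. ZNF24, a SCAN zinc finger protein, had 9510, 9315 and 9469 normalized counts with MB1-47, against 7516, 7239 and 7253 with DMSO. The log2 fold change was 0.36 ± 0.07 (limma adjusted p = 0.0023). It was 0.08, with an adjusted p of 0.48, once the GC and length trend was removed. ZNF217, a partner of the LSD1 and CoREST corepressors that is amplified in breast cancers, averaged 7734 ± 612 with MB1-47 and 5461 ± 195 with DMSO (SD, n = 3 each). Its log2 fold change was 0.50 ± 0.09 as deposited (limma adjusted p = 0.00085) and 0.32 with that trend removed. ZNF106, an RNA-binding protein, averaged 6960 ± 65.4 with MB1-47 and 4901 ± 756 with DMSO, a log2 fold change of 0.52. ZNF664 averaged 5935 ± 303 with MB1-47 and 7900 ± 528 with DMSO, a log2 fold change of -0.41.

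Among genes linked to RNA, ribosomes or the spindle, 4 were lower, 1 was higher and 3 missed the threshold, of 8 within the 200. The share called was 62.5%, against 42% of the 200, 38.1% of all genes tested and 53.4% of genes at the level of the 200. Their median log2 fold change was -0.33 as deposited, against 0.20 over the 200. It was -0.20 with equal library totals, where 2 were lower and 2 higher. Besides ZNF207 and ZNF473, the lower genes were ZNF346 and ZNF598, and the higher one was ZNF106. ZNF346 binds double-stranded RNA and had 933, 909.8 and 903 with MB1-47, against 1149, 1212 and 1315 with DMSO (-0.42 ± 0.12, limma adjusted p = 0.015). ZNF598, a ubiquitin ligase that marks collided ribosomes, had 2651, 2458 and 2429 with MB1-47, against 2850, 3336 and 3381 with DMSO (-0.34 ± 0.10, limma adjusted p = 0.020). The ZNF346 call was lost without DMSO replicate 3 (adjusted p = 0.064) and with equal library totals (0.070). The ZNF598 call was lost without DMSO replicate 2 (0.064), DMSO replicate 3 (0.084) or MB1-47 replicate 3 (0.070), and in 4 of the other alternatives.

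Genes that did not pass in the same group were ZNF326, a factor linking transcription and splicing (-0.31, limma adjusted p = 0.094), ZNF330 (-0.21, adjusted p = 0.24) and ZNF638, an RNA-binding protein (0.27, adjusted p = 0.069). ZNF326 passed without MB1-47 replicate 1 (-0.49, adjusted p = 0.0045) and with the GC and length trend removed (-0.52, adjusted p = 0.0039), and its adjusted p was 0.031 in the replicate block. ZNF330 passed without MB1-47 replicate 3 (-0.36, adjusted p = 0.043) and ZNF638 without DMSO replicate 2 (0.36, adjusted p = 0.025). Over the 17 alternatives ZNF638 ranged from 0.02 to 0.40, with a limma adjusted p of up to 0.88. ZNF326 ranged from -0.52 to -0.19 (up to 0.30) and ZNF330 from -0.36 to -0.08 (up to 0.65).

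KRAB zinc finger genes listed for repression of retroelements showed 3 higher members, none lower and 8 that did not pass, of 11 among the 200. The share called, 27.3%, was below the 38.1% of all genes tested and the 42% of the 200, and the share higher was near the 30% of the 200. ZNF91, which silences SVA elements, had 1615, 1446 and 2228 with MB1-47, against 991, 1209 and 1214 with DMSO. The groups did not overlap (0.61 ± 0.16, limma adjusted p = 0.012), but the call was lost with the GC and length trend removed (0.42, adjusted p = 0.064) and with limma without a trend (0.066). ZNF382 averaged 1079 ± 138 with MB1-47 and 699 ± 91.0 with DMSO (0.63 ± 0.15, limma adjusted p = 0.0067). ZNF417, which binds human endogenous retrovirus K, averaged 1354 ± 248 with MB1-47 and 855 ± 176 with DMSO (0.67 ± 0.17, limma adjusted p = 0.011). ZNF587, its near copy, averaged 1339 ± 184 with MB1-47 and 1197 ± 170 with DMSO and did not pass (adjusted p = 0.41). They share 39.9% of the 31-base stretches of ZNF417, so their values are uncertain. The ZNF417 call was lost without DMSO replicate 3 (adjusted p = 0.051) and with limma without a trend (0.059). ZNF93, known for silencing L1 elements, had 1279, 979 and 1333 with MB1-47, against 1562, 994 and 1001 with DMSO, and the groups overlapped (0.03 ± 0.19). ZNF248 (0.44) passed without MB1-47 replicate 2 (0.67, adjusted p = 0.0058), and ZNF430 (0.20) passed without DMSO replicate 1 (0.52, adjusted p = 0.038). In other alternatives ZNF248 fell to 0.27 and ZNF430 to 0.02. ZNF649 (-0.35), ZNF765 (0.07), ZNF808 (0.07) and ZNF141 (-0.0043) did not pass. Removing the GC and length trend set the median of the 11 genes at 0.01, against 0.16 as deposited.

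Partners of chromatin complexes had 2 higher members, ZNF217 and ZNF592, none lower and 5 that did not pass, of 7 among the 200. The share called was 28.6%, below the 42% of the 200 and the 38.1% of all genes tested. ZNF592, which acts with ZNF687 and ZMYND8, had 2567, 2633 and 2364 with MB1-47, against 1860, 1921 and 1768 with DMSO. The groups were well apart (0.45 ± 0.10, limma adjusted p = 0.0039), while ZNF687 overlapped between the groups (0.15 ± 0.16). ZNF644, a partner of the histone methyltransferases G9a and GLP, stood at 0.29 (limma adjusted p = 0.063) and passed in 6 of 17 alternatives, among them those without DMSO replicate 1 or MB1-47 replicate 2. ZNF281 (0.27) passed without MB1-47 replicate 2 (adjusted p = 0.026), and its adjusted p reached 0.23 in another alternative. ZNF609 had 4006, 4717 and 3679 with MB1-47, against 2243, 4302 and 2705 with DMSO. DMSO replicate 2 alone overlapped the MB1-47 libraries, and without it the log2 fold change was 0.74 in place of 0.47 (adjusted p = 0.0023 in place of 0.086). ZNF512B stood at 0.0031 ± 0.10.

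Activators and other regulators of promoters went both ways, with 2 higher, 2 lower and 6 that did not pass, of 10 among the 200. The 40% called was near the 42% of the 200 and the 38.1% of all genes tested. The higher genes were ZNF24 and ZNF131, the lower ones ZNF263 and ZNF335, and with equal library totals 4 were higher and none was lower. ZNF131 averaged 4042 ± 352 with MB1-47 and 3090 ± 306 with DMSO (0.39 ± 0.10, limma adjusted p = 0.013; 0.052 without MB1-47 replicate 3 and 0.061 with the GC and length trend removed). ZNF335, which belongs to complexes that methylate histone H3, averaged 657 ± 104 with MB1-47 and 890 ± 94.2 with DMSO. Its limma adjusted p of 0.045 exceeded 0.05 in 9 of 17 alternatives, among them those without DMSO replicate 2 or 3 or MB1-47 replicate 1 or 3. ZNF263 averaged 1707 ± 61.7 with MB1-47 and 2162 ± 190 with DMSO (-0.34 ± 0.10, limma adjusted p = 0.025). It shares 32.2% of its 31-base stretches with its neighbour TIGD7, and the call was lost without DMSO replicate 3 (0.11) or MB1-47 replicate 3 (0.085), and in 4 of the other alternatives. ZNF746, which encodes a repressor of the mitochondrial coactivator gene PPARGC1A, had 606, 701 and 762 with MB1-47, against 761, 695 and 688 with DMSO, and the groups overlapped (-0.06 ± 0.14). ZNF384, a fusion partner in acute leukaemias, was at 0.11 ± 0.13 and ZNF410, which activates CHD4, at 0.10 ± 0.09. ZNF148 (0.22, limma adjusted p = 0.055) passed in 4 of 17 alternatives. ZNF395 (0.28) and ZNF76 (0.12) did not pass as deposited.

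Genes with a KRAB pattern had a median log2 fold change of 0.20, with 35 higher and 13 lower of 124 (38.7% called). Those without it had a median of 0.21, with 25 higher and 11 lower of 76 (47.4% called). The share called was 38.1% of all genes tested and 53.4% of genes at the level of the 200. Members with 15 or more finger patterns had a median of 0.20, and those with at most 4 had 0.18. On chromosome 19 the median was 0.23 (29 higher and 10 lower of 97) and elsewhere 0.19 (31 higher and 14 lower of 103). Of these, 40.2% and 43.7% were called. Among clusters of neighbouring ZNF genes on chromosome 19, the one between positions 57191500 and 58481230 had the most members called. It had 9 higher and 5 lower of 18, with a median of 0.36. This is 77.8%, against 42% of the 200, 38.1% of all genes tested and 53.4% of genes at the level of the 200. The cluster was singled out after the counts were seen. The cluster between 51571298 and 53580269 had 5 higher and 2 lower of 27 (25.9% called), with a median of 0.08. The other 3 clusters had medians of 0.19, 0.26 and 0.33. Differences between these classes were not tested.

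Fold changes also varied with base composition and length. Members with a GC content below the median of the 200 had a median log2 fold change of 0.26, and those at or above it 0.15. Over all protein-coding genes tested, those below the same GC content had a median of 0.14 and those at or above it -0.05. Members with transcripts at or above the median length had a median of 0.28 and shorter ones 0.16, against 0.11 and -0.06 over all protein-coding genes tested. Members with under 10% of their 31-base stretches shared with other genes had 32 higher and 12 lower of 102 (43.1% called). The rest had 28 higher and 12 lower of 98 (40.8% called), against 38.1% of all genes tested.

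Of the 259 tested protein-coding ZNF genes outside the 200, 40 were higher and 9 lower, with a median log2 fold change of 0.22. These are 15.4% and 3.47%, so the share of higher genes was below the 18.3% of all genes tested and the share of lower genes was below their 19.8%. Of 91 genes of other C2H2 families (ZBTB, ZSCAN, ZKSCAN, ZFP, KLF and SP), 35 were higher and 5 lower, with a median of 0.39. These are 38.5% and 5.49%, against the same 18.3% and 19.8%. By family, 17 of 37 ZBTB genes were higher and 3 lower, 6 of 14 ZSCAN, 4 of 7 ZKSCAN and 5 of 16 ZFP genes were higher and none lower, and 3 of 17 KLF and SP genes were higher and 2 lower.

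TRIM28, the corepressor of KRAB zinc finger proteins, was lower with MB1-47. It had 26023, 28504 and 26274 normalized counts in the MB1-47 replicates, against 32699, 34892 and 35437 in the DMSO replicates. The groups did not overlap, and the log2 fold change was -0.35 ± 0.07 (limma adjusted p = 0.0031). Its size depended on scaling: it was -0.22 with equal library totals (adjusted p = 0.037) and -0.06 with quantile normalization (adjusted p = 0.64). Of TRIM28 and 21 partners and heterochromatin factors, 10 were lower, 2 higher and 10 missed the threshold. The share called, 54.5%, was near the 53.4% of genes at the level of the 200. The share lower was 45.5%, against 28.5% of those genes and 19.8% of all genes tested. Their median was -0.16 as deposited and -0.03 with equal library totals, where 8 were lower and 3 higher.

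The methyltransferase SETDB1 did not pass (0.24 ± 0.13, limma adjusted p = 0.17), while its cofactor ATF7IP rose (0.66 ± 0.13, adjusted p = 0.0023). ATF7IP had 5655, 5408 and 7089 normalized counts with MB1-47, against 4536, 3551 and 3399 with DMSO. TASOR, the core subunit of the HUSH silencing complex, was the other higher gene (0.31), and PPHLN1 of the same complex was lower (-0.42). All of CBX1, CBX3 and CBX5, which encode the heterochromatin proteins HP1 beta, gamma and alpha, were lower. CBX5 averaged 28364 ± 1005 with MB1-47 and 38794 ± 1848 with DMSO (SD, n = 3 each), a log2 fold change of -0.45. CBX1 and CBX3 stood at -0.28 and -0.59. HDAC1 and HDAC2, both histone deacetylases, were at -0.34 and -0.55, and SUV39H1, a histone methyltransferase of heterochromatin, at -0.52. The largest falls of the list were those of UHRF1 (-2.14) and DNMT1 (-0.89), which copy DNA methylation after replication.

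**Figure D5:**
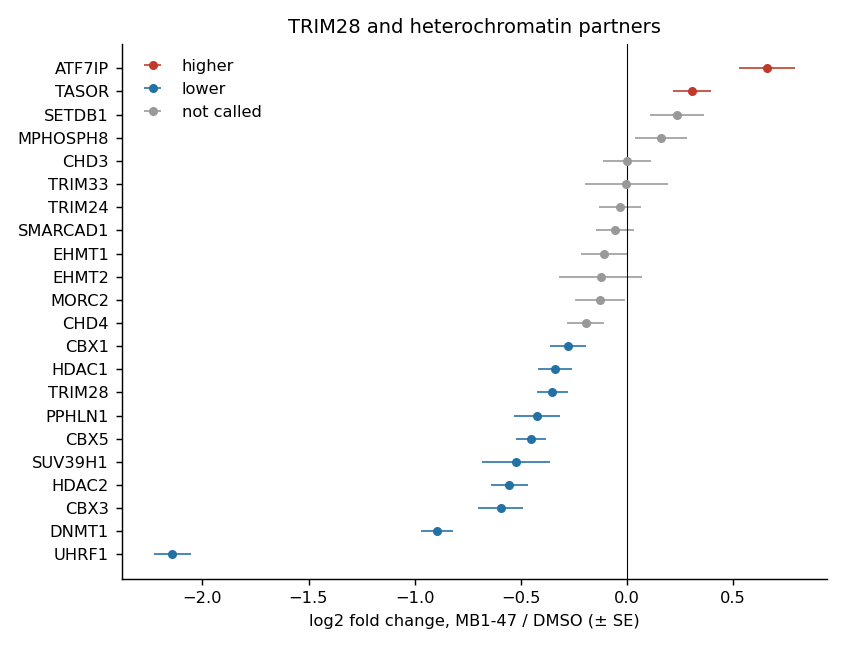
Log2 fold change of MB1-47 over DMSO with its SE (x axis) for TRIM28 and 21 partners and heterochromatin factors (y axis), ordered by value. Red marks the 2 genes called higher, blue the 10 called lower and grey the 10 not called, with ATF7IP at the top and UHRF1 at the bottom.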

How the data were processed

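Libraries were strand-specific and made from total RNA, per the labels. The deposited values are normalized counts, used as a signal that is never negative, made by the authors with DESeq, kallisto 0.44.0 and the build GRCh38.p13, all named in and credited per the submitters' processing notes. How transcripts were summed to genes is not stated in the labels used. Low values were whole multiples of a common step, within 0.1 reads, in 61.2% to 68.2% of cases, so counts were not recovered and no count test was run.

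Values were taken as log2(value + 1) and genes with a mean of at least 10 were fitted with limma 3.58.1 in R 4.3.3 with an intensity trend. Fold changes refer to log2(value + 1), which understates those of low genes. In simulated data for this comparison with 13465 genes, 31.2% of 1.5-fold, 59.4% of 2-fold and 83.6% of 4-fold changes were recovered. Changes were planted in only 64, 69 and 67 genes at these folds, while 5125 genes were called in the data. Recovery after Benjamini-Hochberg adjustment depends on how many genes change, so these percentages do not give the share of ZNF changes missed. Gene types, positions, translated coding sequences and 31-base stretches came from GENCODE 29 on GRCh38, where all 200 symbols matched, and promoters from RefSeq GRCh38.p14. Amino acid sequences are not used here beyond pattern searches.

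The genes and lists were chosen with earlier results of these data known. Named genes were the 10 largest rises and 10 largest falls past the threshold with no overlap between groups, TRIM28, the 5 highest means and the role groups. Replicate numbers did not pair the samples. No library pair shared a value above 0 in any gene. Alternatives were pseudocounts of 0.5 and 5, filters, scalings, limma without a trend, the replicate block, GC and length correction, other member choices and each library left out. Figures were drawn with matplotlib 3.10.9.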

Additional observations from a re-analysis of the deposited data

How the results depend on the processing

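All 84 called members kept the sign of their fold change in all 17 alternative fits, and 32 of the 60 higher and 11 of the 24 lower ones were called in each of them. With each library left out in turn, 42 to 63 members were higher and 12 to 23 lower, with medians of 0.21 to 0.24, and 36 higher and 11 lower members kept their call throughout. Equal library totals gave 92 higher and 11 lower with a median of 0.33, beside 24.8% higher and 15.3% lower of all genes tested. Removing the GC and length trend gave a median of 0.11, also together with the replicate block. limma without a trend gave 40 higher and 14 lower. The replicate block gave 69 higher and 27 lower, beside 18.8% higher and 20.2% lower of all genes tested. Same-numbered libraries correlated at 0.02, 0.06 and 0.01 in their deviations from group means, so the numbers were not taken to pair the samples. Taking the 100 highest genes gave 35 higher and 12 lower, and taking all 459 tested ZNF genes gave 100 higher and 33 lower, as the number of genes differs. All genes tested had 18.3% higher and 19.8% lower. No count-based alternative was run because whole reads were not recovered. The number of libraries, 3 per group, limits the precision.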

Other observations

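ZNF genes below the ranking limit, chosen here after their values were seen, held larger changes than most of the 200. ZNF571 averaged 495 normalized counts with MB1-47 and 205 with DMSO (log2 fold change 1.27 ± 0.18, limma adjusted p = 0.00021). ZNF211 averaged 855 with MB1-47 and 377 with DMSO (1.17 ± 0.16, limma adjusted p = 0.000195). ZNF232, a SCAN gene, averaged 177 with MB1-47 and 463 with DMSO (-1.37 ± 0.22, limma adjusted p = 0.000605). ZNF593, a factor linked to ribosome assembly, averaged 102 with MB1-47 and 259 with DMSO (-1.33 ± 0.25, limma adjusted p = 0.0015). Among ZBTB genes, ZBTB37 averaged 4420 with MB1-47 and 1754 with DMSO (1.35 ± 0.13, limma adjusted p = 1.8e-05), and ZBTB41 averaged 2249 with MB1-47 and 987 with DMSO (1.19 ± 0.11, limma adjusted p = 1.7e-05).

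ZNF pseudogenes, which were left out of the 200, had 1 higher and 3 lower of 19 tested, with a median log2 fold change of 0.03. The share called was 21.1%, against 38.1% of all genes tested. ZNF37BP was higher (0.45 ± 0.12, limma adjusted p = 0.013), and ZNF702P (-1.58 ± 0.43), ZNF542P (-2.18 ± 0.77) and ZNF826P (-0.60 ± 0.21) were lower.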
